A study of Mus musculus with 4 samples.

Results

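T-cell receptor contigs labelled as gamma (TRG) or delta (TRD) chains were examined in pancreatic islet cells of NOD mice, a strain that develops autoimmune diabetes, and of Tet2KO NOD mice. Tet2, lost in the latter, is a dioxygenase that starts the removal of DNA methylation. A member was a barcode that the deposited tables flag as a cell and that carried at least 1 contig, a receptor transcript assembled from reads, of chain TRG or TRD. The rule used the chain label of any contig, productive or not, and found 232 of 13345 called cells. They numbered 143 of 6835 in NOD 1, 45 of 2889 in NOD 2, 14 of 1957 in Tet2KO NOD 1 and 30 of 1664 in Tet2KO NOD 2, and the other 13113 called cells served as the comparison.

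The NOD libraries came from mice labelled WT, and the Tet2KO NOD libraries from mice of a Tet2−/− line made on the B6 background and backcrossed to NOD females for many generations. Each of the 4 libraries holds pooled islets of 4 to 6 mice, so a library is a pool of mice, and the 2 libraries of a genotype are told apart by a set number. The series text gives 10 to 13 weeks as an age, whereas the protocol counts those weeks from an event abbreviated BTM and mentions NOD females used as bone marrow donors. Whether these were transplanted animals was therefore not settled. The tables held 85137263 to 220516119 reads per library.

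The delta locus lies inside the alpha locus on chromosome 14, between the alpha V segments (TRAV) and the alpha J segments (TRAJ). A gamma-delta T cell joins a TRDV to TRDD and TRDJ segments, transcribes the result with the constant segment TRDC, and pairs it with a gamma chain. An alpha-beta T cell first makes a beta chain (TRB) and then joins a V to a TRAJ in front of the constant segment TRAC, which deletes the delta segments between them. Alpha joining begins with V segments near the J cluster and the 5′ TRAJ and moves on to more distant segments in later rounds, on both copies of the locus, and a cell can carry 1 alpha join on each copy.

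The label of the contigs and their segments differed. The 232 cells held 234 such contigs. All 234 were TRD contigs and none was a TRG contig. A TRDV was named in all of them, but 215 also named a J segment, and each of those was a TRAJ. The constant segment TRAC was named in 212, and 19 contigs named neither a J nor a C segment. TRDD1, TRDD2, TRDJ1, TRDJ2 and TRDC were named in 0 of these contigs. Whether the joins hold TRDD bases that were not named was not tested. Wherever a J was named, the contig was thus, by its named segments, a TRDV-to-TRAJ join. The 19 contigs without a J, 16 of them in NOD 1, showed a TRDV and no join.

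Sequences of the join are shown because they let the V end and the TRAJ be read directly. On GRCm38, per the RefSeq and GENCODE annotation, TRDV1 lies at chr14:53881612-53882217, TRDV2-1 at chr14:53946073-53946660 and TRDV2-2 at chr14:53960993-53961602, all on the plus strand. TRDV5 lies at chr14:54148662-54149201 on the minus strand, 2.55 kb beyond the end of TRDC and 8.08 kb before TRAJ58, so that its join to a TRAJ needs an inversion. The germline ends of the 4 segments, from the codon of the last cysteine to the last coding base, are as follows, 5′ to 3′.
TRDV1 germline end: tgtggagggaaag
TRDV2-1 germline end: tgtgcactcagggggagc
TRDV2-2 germline end: tgtgctctcatggagcgc
TRDV5 germline end: tgtgcctcggggtat

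A CDR3, the stretch across the join, was listed for 164 contigs and came in 121 distinct combinations of V, J and sequence. The lines below give the sequences found in 2 or more called cells and the leading sequence of the V–J pairs seen in most cells. Capitals mark the bases that match the end of the named TRDV, counted from the cysteine codon to the first mismatch. Lower case marks the rest, which runs into the named TRAJ and was not compared with germline TRDD or TRAJ sequence.
TRDV1–TRAJ42, 23 cells of NOD 1: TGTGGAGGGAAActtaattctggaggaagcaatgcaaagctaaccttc
TRDV1–TRAJ37, 4 cells of NOD 1: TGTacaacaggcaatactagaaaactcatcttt
TRDV1–TRAJ58, 3 cells of NOD 1: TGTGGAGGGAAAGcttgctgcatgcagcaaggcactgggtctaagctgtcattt
TRDV1–TRAJ49, 3 cells of NOD 1: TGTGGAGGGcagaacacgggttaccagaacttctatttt
TRDV1–TRAJ49, 3 cells of Tet2KO NOD 2: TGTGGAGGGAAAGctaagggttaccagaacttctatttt
TRDV1–TRAJ39, 1 cell each of NOD 2 and Tet2KO NOD 1: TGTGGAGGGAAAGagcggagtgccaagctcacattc
TRDV1–TRAJ47, 2 cells of NOD 1: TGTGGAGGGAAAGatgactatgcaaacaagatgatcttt
TRDV1–TRAJ57, 1 cell of NOD 2: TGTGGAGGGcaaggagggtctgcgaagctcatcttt
TRDV1–TRAJ56, 1 cell of NOD 1: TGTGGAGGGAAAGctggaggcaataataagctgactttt
TRDV1–TRAJ52, 1 cell of NOD 2: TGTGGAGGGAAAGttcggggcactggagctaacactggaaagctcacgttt
TRDV1–TRAJ45, 1 cell of NOD 2: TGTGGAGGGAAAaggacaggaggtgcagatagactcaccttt
TRDV2-1–TRAJ50, 7 cells of NOD 2: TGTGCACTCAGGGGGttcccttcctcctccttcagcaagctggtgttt
TRDV2-1–TRAJ49, 2 cells of NOD 1: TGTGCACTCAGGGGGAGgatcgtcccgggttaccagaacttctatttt
TRDV2-1–TRAJ42, 2 cells of Tet2KO NOD 1: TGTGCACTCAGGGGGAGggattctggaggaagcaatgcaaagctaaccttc
TRDV2-1–TRAJ57, 2 cells of Tet2KO NOD 2: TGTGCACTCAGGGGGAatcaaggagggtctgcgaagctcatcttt
TRDV2-1–TRAJ37, 2 cells of NOD 1: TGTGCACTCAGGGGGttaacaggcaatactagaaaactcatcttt

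All but 1 of these begin with at least 9 germline V bases. The exception, TRDV1–TRAJ37, matches only the first 3, too few to tell whether they come from the V. The 2 TRDV5 joins in the V frame show the V that sits in the opposite orientation joined to a TRAJ.
TRDV5–TRAJ48, 1 cell of NOD 1: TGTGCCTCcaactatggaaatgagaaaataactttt
TRDV5–TRAJ57, 1 cell of NOD 1: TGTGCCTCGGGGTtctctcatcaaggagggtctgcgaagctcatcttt

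The V segments kept the same order in every library. TRDV1 was named in 157 contigs, with 101 in NOD 1, 27 in NOD 2, 8 in Tet2KO NOD 1 and 21 in Tet2KO NOD 2. These made 70.1%, 60.0%, 53.3% and 70.0% of the TRD contigs of those libraries. TRDV2-1 was named in 43 contigs (22, 12, 4 and 5 in the same order of libraries) and TRDV2-2 in 29 (18, 5, 3 and 3). TRDV5 was named in 5, of which 3 came from NOD 1, 1 from NOD 2 and 1 from Tet2KO NOD 2. The intervals of TRDV2-1 and TRDV2-2 overlapped in every library. The coding sequences of these 2 segments are identical at 319 of 348 positions (91.7%), while their germline ends, printed above, differ. In a TRBV31–TRBJ1-4 clone of NOD 1, a TRAJ49 join without a CDR3 was named TRDV2-1 in 6 cells and TRDV2-2 in 1. Whether names were exchanged elsewhere was not tested. TRDV4 was named in no called cell and no contig of these cells named a TRAV/DV segment, a V that can serve either chain.

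**Figure D1:**
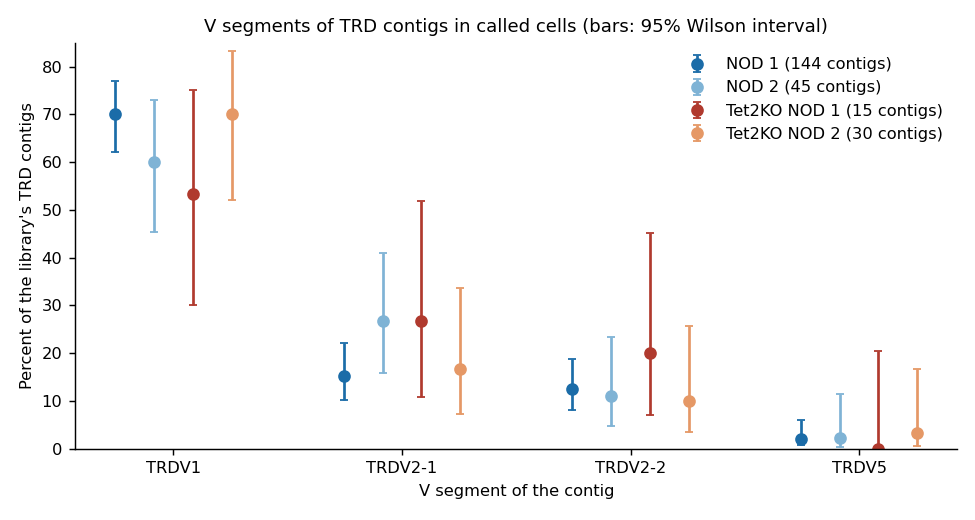
Each point is the percent of a library's TRD contigs in called cells that name a V segment, with its 95% Wilson interval, for the 4 libraries. TRDV1 sits at 53.3% to 70.1% and stands above the other segments in every library.

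Among the J segments, TRAJ42 was named in most contigs, 33, but 31 of these came from NOD 1 and 2 from Tet2KO NOD 1. TRAJ57 was named in 26 contigs, in 11 cells of NOD 1, 8 of NOD 2, 2 of Tet2KO NOD 1 and 5 of Tet2KO NOD 2. TRAJ58, the most 5′ TRAJ seen, was also named in 26 contigs, in 8, 5, 3 and 9 cells. The count for TRAJ42 was dominated by 1 expanded clone, described further on, whereas TRAJ57 and TRAJ58 were spread over all 4 libraries. TRAJ49 was found in 22 cells (19, 0, 0 and 3), TRAJ37 in 16 (9, 3, 2 and 2) and TRAJ50 in 15 (6, 8, 0 and 1). The other 17 named TRAJ were in 1 to 9 cells each.

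The first comparison asked whether the share of cells with a TRD contig differed by genotype. The share of called cells was 2.09% in NOD 1, 1.56% in NOD 2, 0.715% in Tet2KO NOD 1 and 1.80% in Tet2KO NOD 2. The lowest value belonged to a Tet2KO NOD library, and the other Tet2KO NOD library lay between both NOD libraries, so the groups overlapped. The mean was 1.82% ± 0.378 (SD, n = 2) in NOD and 1.26% ± 0.769 (SD, n = 2) in Tet2KO NOD. The difference of -0.566 percentage points was within the spread between pools (exact two-sided permutation test over the libraries, p = 0.667, smallest possible p 0.333). It was -1.38 points within set 1 and 0.245 points within set 2, and -0.022 points without Tet2KO NOD 1, -0.299 without NOD 1 and -1.11 without Tet2KO NOD 2. With only the 213 members whose contig named a J, it was -0.444 points.

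Counted once per TRB clone, that is, per identical TRB V, J and CDR3 nucleotide sequence within a library, the shares lay closer together. A TRD contig was found in 86 of 4153 clones of NOD 1 (2.07%), 36 of 1913 of NOD 2 (1.88%), 14 of 1037 of Tet2KO NOD 1 (1.35%) and 28 of 1118 of Tet2KO NOD 2 (2.50%). Tet2KO NOD libraries were here both the lowest and the highest. The difference of -0.0491 points had an exact permutation p of 1, and it turned to 0.0454 without NOD 1 and to 0.528 without Tet2KO NOD 1; it was -0.144 without NOD 2 and -0.626 without Tet2KO NOD 2. Clones with a contig that named a J numbered 83, 35, 14 and 27, and their shares differed by -0.0315 points.

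No called cell carried a TRG contig. Zero cells allow a share of up to 0.0439% in NOD 1, 0.104% in NOD 2, 0.153% in Tet2KO NOD 1 and 0.180% in Tet2KO NOD 2, taking a count of 0 to allow 3, for counting error only. These limits concern cells with an assembled TRG contig, not cells that express one, and for the amplification primers, the chains they target are not given in the sources used here. No contig of any barcode, called or not, named TRDC or a TRGC segment, and none of the TRG and TRD contigs was productive. A TRDJ was named once in the series, in a TRA-labelled contig of 1 UMI that joins a TRAV15D-1-DV6D-1 to TRDJ1. By the definition used, a productive TRG and a productive TRD with no productive TRA or TRB, there were 0 gamma-delta T cells among the members. With no productive TRG or TRD contig in any barcode, no cell could meet this definition. Each member carried a productive TRA or a productive TRB: 229 of 232 had a TRB, and the 3 without one had a TRA. TRAV11-family chains with TRAJ18, which mark invariant NKT cells, and TRAV1 with TRAJ33, which marks MAIT cells, were each at 0 among members, and no immunoglobulin contig was present in any barcode.

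No TRD contig was flagged productive, although all 234 were of high confidence and 198 were full length. The flag's treatment of a TRDV joined to a TRAJ is not stated in the sources used here, so the reading frame was taken from the sequence. A contig was said to be in the V frame where its CDR3 starts at the cysteine codon of the germline TRDV and shares at least 4 bases with it. This held for 148 contigs, 144 of them full length. The others were 10 with a CDR3 in another frame, 4 with too few V bases to tell, 2 whose CDR3 was cut short, 51 with a J but no CDR3 and 19 without a J.

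The count of contigs in the V frame was 81 of 144 in NOD 1, 29 of 45 in NOD 2, 12 of 15 in Tet2KO NOD 1 and 26 of 30 in Tet2KO NOD 2. Among contigs with a J, the V frame was found in 95 of 138 for TRDV1 (68.8%), 28 of 43 for TRDV2-1 (65.1%), 23 of 29 for TRDV2-2 (79.3%) and 2 of 5 for TRDV5 (40%). The Wilson intervals of the 4 segments overlapped. Distinct joins in the V frame had a median CDR3 of 45 bases, of which a median of 13 matched the TRDV.

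Each TRD contig rested on few molecules. The UMIs (unique molecular identifiers, 1 for each captured transcript) of all 234 contigs ran from 1 to 34 with a median of 5, and 27 contigs rested on 1 UMI. Contigs in the V frame had medians of 6 in NOD 1, 7 in NOD 2, 4 in Tet2KO NOD 1 and 5 in Tet2KO NOD 2. Contigs with a J that were not in the V frame had medians of 2, 4, 2 and 5. The V-frame contigs were higher in 3 libraries and equal in Tet2KO NOD 2, where only 3 contigs were in the second class. The mean difference was 2.25 ± 1.71 UMIs (SD, n = 4 libraries; exact two-sided sign-flip permutation test, p = 0.25; smallest possible p 0.13).

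The alpha chains of the other called cells give a scale for these values. Over all libraries the median was 6 UMIs for V-frame TRD contigs and 6 for the productive TRA contigs of other cells. It was 2 for TRD contigs with a J outside the V frame, 2 for those without a J and 2 for nonproductive TRA contigs of other cells. Single libraries departed from this: the 3 contigs with a J outside the V frame of Tet2KO NOD 2 had a median of 5, and the 2 without a J of NOD 2 had 5.5.

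**Figure D2:**
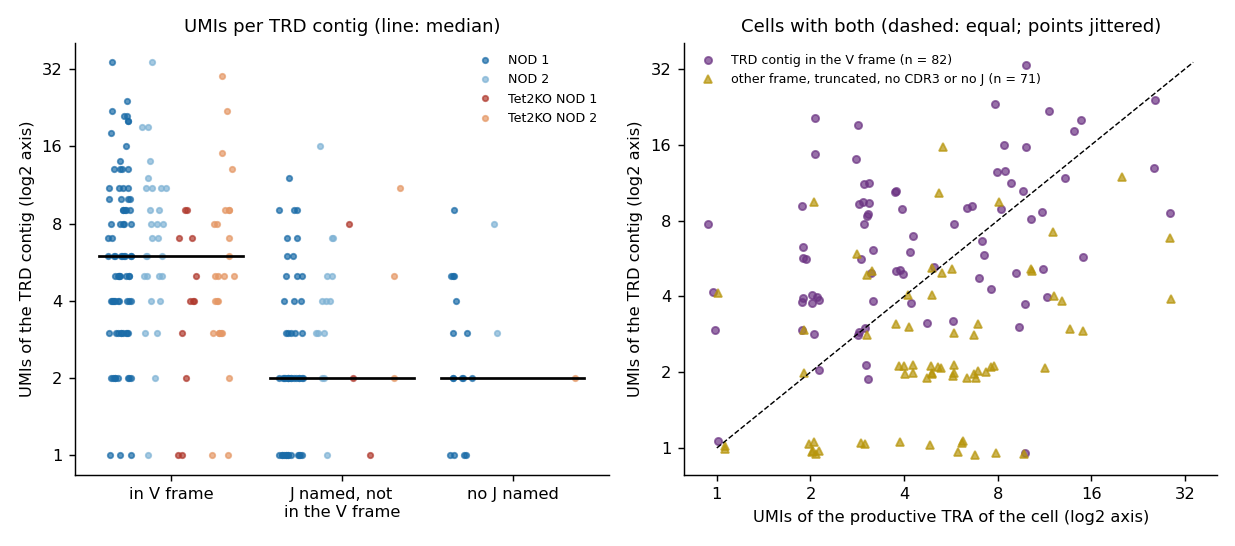
The left panel plots the UMIs of each TRD contig by reading frame on a log2 axis, coloured by library, with the median as a line (6, 2 and 2 UMIs). The right panel plots them against the UMIs of the productive TRA of the same cell, on log2 axes, without the 4 contigs of unclear frame. Of contigs in the V frame, 54 of 82 lie above the line of equality (34 of 61 without the largest clone). Of those in another frame, cut short, without a CDR3 or without a J, 55 of 71 lie below it.

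In cells that also had a productive TRA, the 2 kinds of contig stood differently to that chain. Of 82 cells with a V-frame TRD contig and a productive TRA, the TRD contig had more UMIs in 54, the same number in 8 and fewer in 20. By library it had more in 35 of 51 cells of NOD 1, 9 of 14 of NOD 2, 1 of 4 of Tet2KO NOD 1 and 9 of 13 of Tet2KO NOD 2. The largest clone supplied 21 of the NOD 1 cells. Without it the TRD contig had more UMIs in 15 of 30 cells of NOD 1 and fewer in 11, and over all libraries more in 34 of 61 and fewer in 19. Of 71 cells whose TRD contig was in another frame, cut short, without a CDR3 or without a J, it had more UMIs in 9, the same in 7 and fewer in 55. The 4 contigs with too few V bases to tell were left out of both counts. They had 4, 7, 9 and 9 UMIs, against 5, 4, 5 and 4 for the TRA of the same cells. Tet2KO NOD 1 was the exception for V-frame contigs, with 3 of 4 cells richer in TRA.

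The second set of comparisons concerned the alpha and beta chains of the same cells against the other called cells. A productive TRA was found in 75.5% of members and 89.7% of other cells of NOD 1, and in 60.0% and 92.4% of NOD 2. It was found in 42.9% of members and 88.1% of other cells of Tet2KO NOD 1, and in 53.3% and 90.3% of Tet2KO NOD 2. The members lay below the other cells in all 4 libraries, and the highest value among members was under the lowest among other cells. The mean difference was -32.2 ± 13.2 percentage points (SD, n = 4 libraries; exact two-sided sign-flip permutation test over 16 sign patterns, p = 0.13, the smallest that 4 libraries allow; Benjamini-Hochberg adjusted over 14 measures, 0.25). No measure could pass 0.05 in this design, so the direction in each library and the sizes are what the data give. A TRD join takes up a copy of the locus that could hold a TRA join, so part of the difference in productive TRA can follow from the rule. How large that part is was not tested.

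The members also carried fewer second alpha joins labelled TRA. Over 1 productive TRA was found in 1.40% of members of NOD 1, 2.22% of NOD 2 and none of the 14 and 30 members of the Tet2KO NOD libraries, against 11.9%, 12.5%, 9.62% and 11.0% of other cells. A nonproductive TRA contig was found in 7.69%, 6.67%, 7.14% and 10.0% of members, against 27.4%, 31.9%, 28.3% and 28.9% of other cells. Both measures were lower in members in 4 of 4 libraries, with mean differences of -10.3 ± 0.554 and -21.3 ± 2.83 percentage points (SD, n = 4; exact sign-flip permutation p = 0.13 each, adjusted 0.25 each). A TRD join takes up a copy of the locus and is not labelled TRA, so lower values here follow in part from the rule. The tests cannot tell how large that part is.

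Beta chains differed less. A productive TRB was found in 98.6%, 97.8%, 100% and 100% of members and in 97.8%, 98.1%, 97.5% and 97.9% of other cells. The difference of 1.26 ± 1.28 points had an exact sign-flip p of 0.25 (adjusted 0.389) and was negative in NOD 2. More than 1 productive TRB, which 2 cells under 1 barcode can also give, was found in 7.69%, 8.89%, 7.14% and 10.0% of members against 5.71%, 4.32%, 3.35% and 3.86% of other cells. It was higher in members in 4 of 4 libraries, by 4.12 ± 1.73 points (exact sign-flip p = 0.13, adjusted 0.25), and rested on 11, 4, 1 and 3 members. Without the 14 members whose barcode carried a TRD contig in another library, it was 2.82 points and higher in 3 of 4 libraries (exact sign-flip p = 0.375). Without cells of over 1 productive TRB the difference in productive TRA was -35.6 points.

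The median number of reads over all contigs of a cell was 26746, 58850, 59080.5 and 49859.5 in members and 21492, 43126.5, 59261 and 47825.5 in other cells, and members hold at least 1 more contig type by the rule. UMI depth was closer. The median UMIs of the TRB were 12, 13, 10.5 and 12.5 in members and 10, 13, 10 and 11 in other cells, a difference of 1.00 ± 0.913 (exact sign-flip p = 0.25, adjusted 0.389). With the other cells reweighted to the members' distribution of TRB UMIs, the difference in productive TRA was -32.1 points. The median UMIs of the productive TRA were 4.5, 5, 6 and 4 in members that had one, against 6, 6, 5 and 6 in other cells, lower in 3 of 4 libraries. Its difference of -0.875 ± 1.31 UMIs had an exact sign-flip p of 0.375 (adjusted 0.477), and leaving out Tet2KO NOD 1 gave -1.5 and leaving out Tet2KO NOD 2 gave -0.5.

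A TRD contig in the V frame was then counted beside the alpha chain, as a description. A productive TRA or a V-frame TRD contig was present in 95.8% of members of NOD 1, 93.3% of NOD 2, 100% of Tet2KO NOD 1 and 96.7% of Tet2KO NOD 2. The share with a productive TRA in the other cells was 89.7%, 92.4%, 88.1% and 90.3%. No test was made, since the rule that chose the members gives them a TRD contig and the other cells none.

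**Figure D3:**
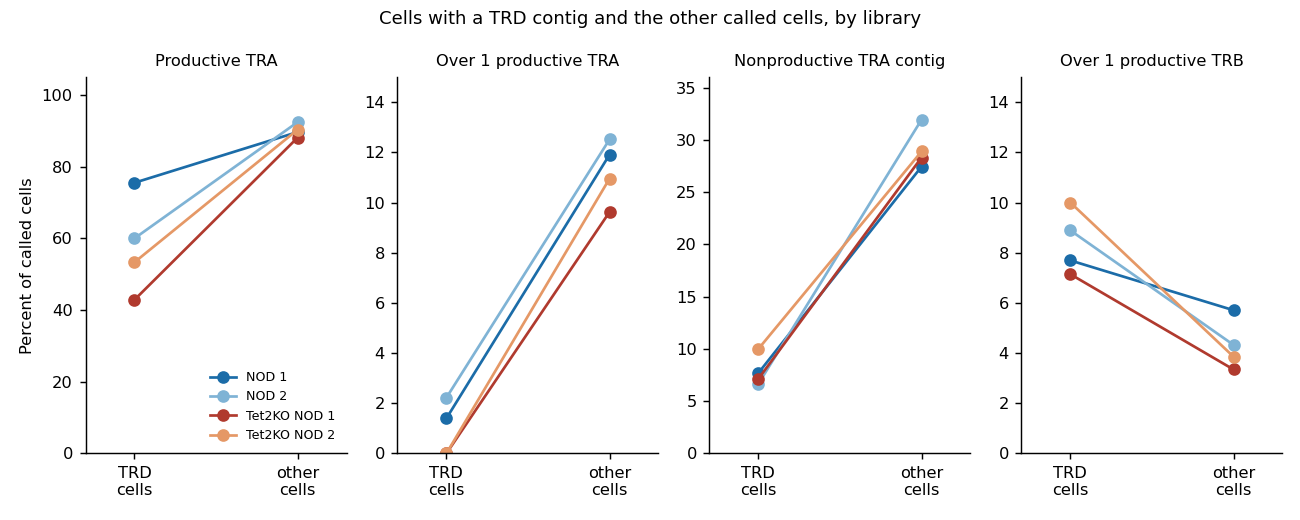
Each line joins the percent of cells with a TRD contig (left) and of other called cells (right) of 1 library that show the feature named above the panel; the y axes differ in range. Members lie below the other cells in the first 3 panels (a productive TRA, over 1 productive TRA, a nonproductive TRA contig) and above them in the last (over 1 productive TRB), in all 4 libraries.

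The frame of the TRD contig and the presence of a productive TRA went together. Of 75 members without a productive TRA, 65 had a TRD contig in the V frame, and each of the 75 had a productive TRB. Of 157 members with a productive TRA, 82 had one. Among members whose contig named a J, the V frame was found in 29 of 33 without and 51 of 94 with a productive TRA in NOD 1, and in 15 of 17 and 14 of 26 in NOD 2. It was found in 8 of 8 and 4 of 6 in Tet2KO NOD 1, and in 13 of 14 and 13 of 15 in Tet2KO NOD 2. Contigs with a J but no CDR3, or with too few V bases to tell, counted here as not in the V frame. The 4 with too few V bases were all in NOD 1 members with a productive TRA. The V-frame share was higher without a productive TRA in 4 of 4 libraries, by 33.6, 34.4, 33.3 and 6.19 percentage points.

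The mean of these differences was 26.9 ± 13.8 points (SD, n = 4; exact sign-flip permutation p = 0.13, adjusted 0.208 over the 5 comparisons of this kind). Counted once per TRB clone it was 29.0 ± 15.6 points, again with 4 of 4 libraries higher (exact sign-flip p = 0.13). This comparison was chosen after the data had been seen. The median TRD UMIs of V-frame contigs were 6 in cells with and 5 in cells without a productive TRA, and the TRB UMIs of those cells were 14 and 11.

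Most distinct joins used a TRAJ of the 5′ part of the cluster. With each clone's join counted once, 65 of 84 joins of NOD 1 (77.4%), 27 of 36 of NOD 2 (75%), 9 of 14 of Tet2KO NOD 1 (64.3%) and 24 of 27 of Tet2KO NOD 2 (88.9%) used TRAJ58 to TRAJ40. The productive TRA of other cells, each distinct receptor once, used these TRAJ in 40.8%, 41.7%, 40.7% and 40.8%. The TRD joins lay higher in every library, by 35.4 ± 10.1 points (SD, n = 4; exact sign-flip permutation p = 0.13, adjusted 0.208). TRAJ58 and TRAJ57 each made 14.3% of 161 distinct TRD joins, against 1.78% and 3.04% of 7794 distinct TRA.

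The TRA that use the TRAV nearest to the delta V segments gave values like those of the TRD joins. TRAV17, TRAV18, TRAV19 and TRAV21-DV12 lie just upstream, the last of them 4.86 kb before TRDV1. Their joins in other cells used TRAJ58 to TRAJ40 in 77.7%, 87.0%, 72.2% and 70.0%. The mean difference, TRD joins minus these TRA, was -0.346 points with an SD of 13.7 over the 4 libraries (exact sign-flip permutation p = 0.875). The TRD joins were lower in 3 libraries and higher in Tet2KO NOD 2. The difference was -6.76 without Tet2KO NOD 2, -1.58 with contigs of 2 or more UMIs and -0.868 without cells of over 1 productive TRB, and the sign turned without NOD 2 (3.54), without Tet2KO NOD 1 (2.18) and without the cells whose barcode has a TRD contig in another library (1.37). With 4 libraries this SD does not show that the 2 shares are alike.

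The TRDV differed little in this respect. TRAJ58 to TRAJ40 made 79 of 102 distinct joins of TRDV1 (77.5%), 21 of 27 of TRDV2-1 (77.8%), 23 of 29 of TRDV2-2 (79.3%) and 4 of 5 of TRDV5 (80.0%). TRDV1 lies 275 kb before TRAJ58, TRDV2-1 211 kb and TRDV2-2 196 kb, whereas TRDV5 lies next to the TRAJ cluster. The most 3′ TRAJ in a called cell was TRAJ13, with TRDV1, in NOD 2. That contig had 19 UMIs, and its barcode carried the same CDR3 in the other 3 libraries, with up to 16 UMIs.

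**Figure D4:**
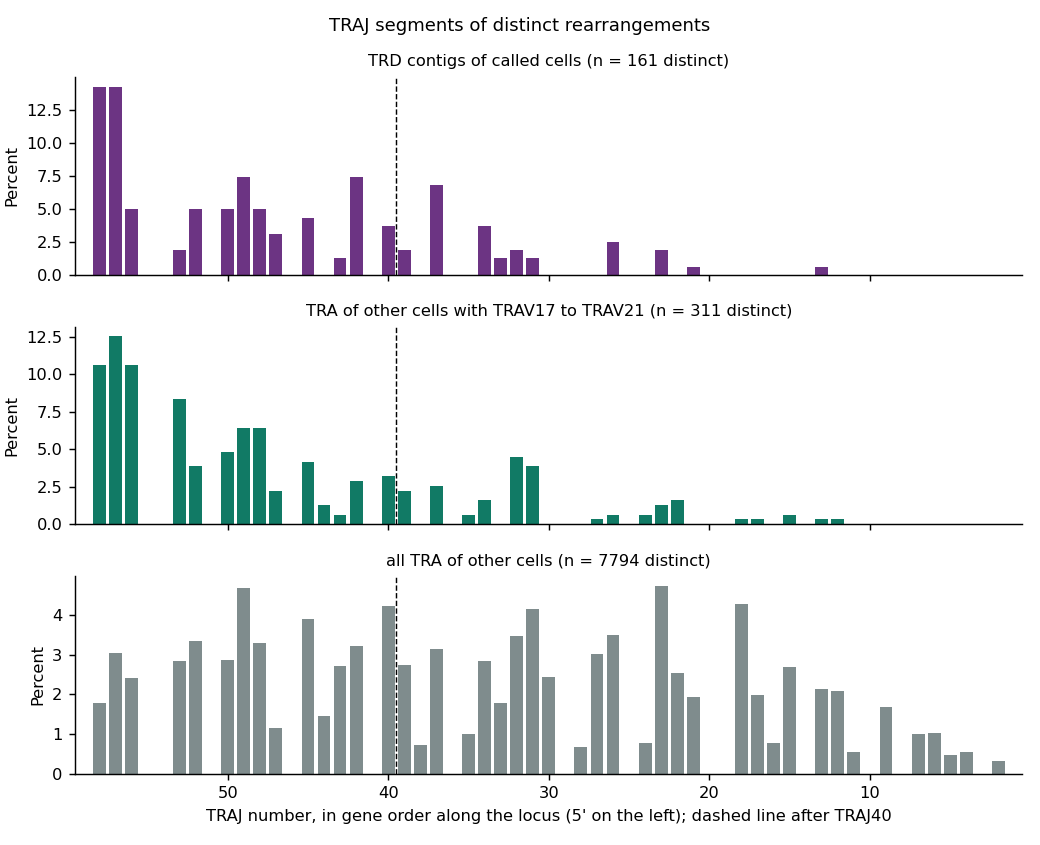
Bars give the percent of distinct rearrangements that use each TRAJ, in locus order from TRAJ58 on the left, for 161 TRD joins, 311 TRA of other cells with TRAV17 to TRAV21 and all 7794 TRA of other cells; the y axes differ in range. TRD joins and the TRA with TRAV17 to TRAV21 are both concentrated left of the dashed line, and all TRA of other cells spread over the whole cluster. TRAJ58 and TRAJ57 are highest among TRD joins, at 14.3% each, and make 10.6% and 12.5% of the TRA with TRAV17 to TRAV21.

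The alpha chain of the member cells was also shifted to the 5′ TRAJ. Their productive TRA used TRAJ58 to TRAJ40 in 76.9% of members of NOD 1, 85.2% of NOD 2, 50.0% of Tet2KO NOD 1 (3 of 6 cells) and 81.2% of Tet2KO NOD 2, against 45.0%, 45.3%, 39.95% and 40.7% of other cells. The members were higher in 4 of 4 libraries, by 30.6 ± 14.2 points (SD, n = 4; exact sign-flip permutation p = 0.13, adjusted 0.25). Counting each distinct receptor once gave 30.9 ± 14.4 points, higher in 4 of 4. The 3′ group, TRAJ20 to TRAJ2, made 3.70%, 3.70%, 16.7% and 12.5% of members' TRA against 19.9%, 18.8%, 17.2% and 18.1% in other cells, lower in 4 of 4 libraries with a mean difference of -9.37 ± 7.56 points (exact sign-flip p = 0.13, adjusted 0.25). The 3′ difference did not stay lower in 4 of 4 libraries under several settings. It was -8.12 points with contigs of 2 or more UMIs, -12.6 without cells of over 1 productive TRB and -8.38 without barcodes called in over 1 library (exact sign-flip p = 0.25 each), and -6.98 without the 14 members whose barcode carried a TRD contig elsewhere (p = 0.375).

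Within clones the 2 TRAJ did not track each other closely. In 97 clones with both a TRD join and a productive TRA, the median TRAJ number was 49 for each, Pearson's r across clones was 0.0883 and Spearman's rho 0.179. The 2 productive TRA of 841 other clones gave 0.613 and 0.627. Across clones these are descriptions, and the TRD joins cover a narrower range of TRAJ. In 78 clones whose TRD join used TRAJ58 to TRAJ40, 57 of the TRA did too (73.1%). In 19 clones whose join used a later TRAJ, 16 of the TRA used TRAJ58 to TRAJ40 (84.2%). Among other cells with 2 productive TRA, 668 chains used TRAJ58 to TRAJ40, and for 470 of them the cell's other TRA did too (70.4%). This counts chains, so a cell with both TRA in that group counts 2 times.

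Of the V segments of members' productive TRA, TRAV6D-6 was in most cells, 27 of 157 (17.2%), against 3.70% of 11818 other cells with a TRA. It came from 8 clones, and 23 of the cells were in NOD 1. The largest clone supplied 21 of them, and without it the count was 6 of 136 (4.41%). TRAV5-4 followed with 26 cells (16.6%) in 15 clones, against 7.84%, and TRAV21-DV12 and TRAV16N with 12 cells each (7.64%), against 2.72% and 6.72%. TRAV/DV names made 11.1%, 3.70%, 33.3% and 0% of members' TRA and 6.17%, 5.33%, 6.25% and 5.49% of those of other cells. The difference of 6.23 ± 14.6 points went both ways and rested on Tet2KO NOD 1, where it was 2 of 6 cells; without that library it was -0.721 and without Tet2KO NOD 2 10.1.

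Of the TRB, the joined name TRBV12-2+TRBV13-2 led with 45 of 229 members (19.7%), 38 of them from NOD 1, against 9.93% of 12828 other cells with a TRB. These 45 cells came from 20 clones. The largest clone supplied 21 of them, and without it the count was 24 of 206 (11.7%). TRBV1 and TRBV13-1 followed with 21 cells each (9.17%), in 20 and 15 clones, against 6.66% and 7.90%. TRBJ2 segments made 72.3%, 63.6%, 64.3% and 53.3% of members' TRB and 65.5%, 71.0%, 70.8% and 64.1% of other cells', a difference of -4.44 ± 7.77 points (exact sign-flip p = 0.375, adjusted 0.477). It was -8.22 without NOD 1 and -2.33 without Tet2KO NOD 2.

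The members with a TRB fell into 164 TRB clones, of which 125 were single cells and 39 had 2 or more cells. In those 39 clones, 104 of 161 cells (64.6%) carried a TRD contig, and 22 clones had 2 or more members. Where 2 or more members of a clone listed a CDR3, it was 1 and the same in 11 of 12 clones. A TRBV2–TRBJ2-3 clone of NOD 1 was the exception, with 2 TRDV2-1–TRAJ37 sequences in 2 cells. The largest clone counts as 2 clones here, since its TRB carries 2 V names. Conversely, 1 sequence could lie in different TRB clones of a library. The TRDV2-1–TRAJ42 sequence was in 2 cells of 2 clones of Tet2KO NOD 1. The TRDV1–TRAJ49 sequence of Tet2KO NOD 2 was in 3 cells of 2 clones.

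The largest clone, in NOD 1, had 25 cells by its TRB CDR3, named TRBV12-2+TRBV13-2 in 22 cells and TRBV13-2 in 3. Of these cells 23 carried a TRD contig, all 23 with the TRDV1–TRAJ42 sequence printed above, and 21 carried a productive TRAV6D-6–TRAJ45. The TRD contig had a median of 10 UMIs (3 to 34) and the TRA a median of 3 (1 to 15). The clone made 16.1% of the members of NOD 1. Its CDR3 was found in 15 further barcodes of NOD 1 that were not called as cells.

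Other clones differed in how many of their cells carried the contig. In NOD 2, all 7 cells of a TRBV19–TRBJ2-1 clone carried TRDV2-1–TRAJ50 in the V frame, and 6 carried a productive TRAV16N–TRAJ53. In NOD 1, a TRBV19–TRBJ2-7 clone of 19 cells had a TRDV1 contig in 7, of which 6 named no J, and a TRAV5-4–TRAJ53 in 15. A TRBV31–TRBJ1-4 clone of 8 cells had a TRAJ49 join without a CDR3 in 7, named TRDV2-1 in 6 and TRDV2-2 in 1, and a TRAV10N–TRAJ37 in all 8.

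In 4 clones the TRD join in the V frame stood alone. The first 3 were in NOD 1: TRBV12-2+TRBV13-2–TRBJ2-3 with TRDV1–TRAJ49 in 3 of 3 cells, TRBV2–TRBJ2-4 with TRDV1–TRAJ47 in 2 of 2, and TRBV2–TRBJ2-3 with TRDV2-1–TRAJ37 in 2 of 2. The fourth was TRBV14–TRBJ2-4 of Tet2KO NOD 2, with TRDV1–TRAJ49 in 2 of 2 cells at 13 and 22 UMIs; the barcode of the first carried the same join in another library at 9 UMIs. No cell of these 4 clones carried a productive TRA. The join of the fourth was also in 1 further cell of Tet2KO NOD 2 with another TRB, at 3 UMIs. That cell had a productive TRA of 1 UMI.

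**Figure D5:**
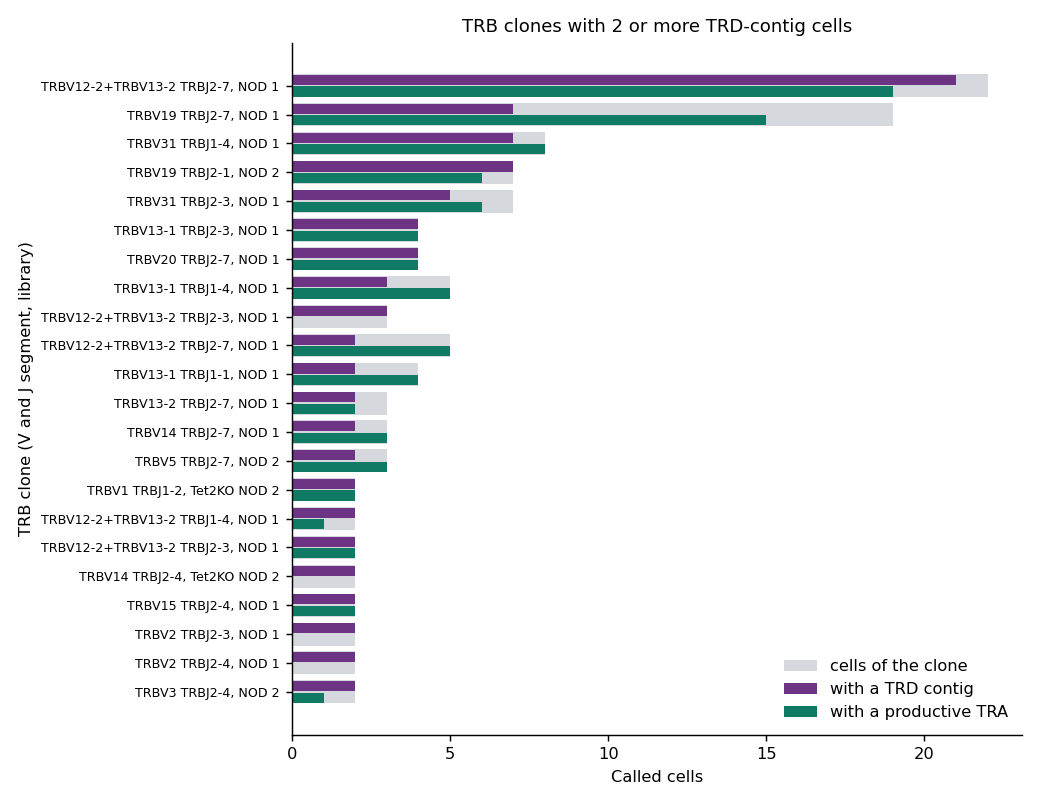
For each of the 22 TRB clones with 2 or more members, the grey bar gives its called cells, the upper coloured bar those with a TRD contig and the lower those with a productive TRA. In 4 clones of 2 or 3 cells every cell has a TRD contig and none a productive TRA; the TRBV13-2 clone of 3 cells shares its TRB CDR3 with the largest clone.

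Clone size did not separate members from other cells in 1 direction. Of paired cells, those with 1 TRB and a TRA, 60.0% of members of NOD 1 were in clonotypes of 2 or more cells (57 of 95) against 43.8% of other cells, and 40.9% against 40.6% in NOD 2. In Tet2KO NOD 1 it was 20% (1 of 5) against 54.7%, and in Tet2KO NOD 2 15.4% (2 of 13) against 39.4%. The mean difference was -10.6 ± 23.1 points (exact sign-flip p = 0.5, adjusted 0.538). It averaged lower values in the Tet2KO NOD libraries, a higher one in NOD 1 and nearly level ones in NOD 2. Leaving out NOD 1 gave -19.5, leaving out Tet2KO NOD 1 gave -2.54 and leaving out Tet2KO NOD 2 gave -6.07. Without the largest clone the NOD 1 value was 48.6%, 4.80 points above the other cells.

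Barcodes shared between libraries touch some of these cells. Of all barcodes, 81 were called as cells in over 1 library, and 3 members lay at 2 of them. For 14 members (6.03%), the same barcode carried a TRD contig in another library: 3 in NOD 1, 6 in NOD 2, 2 in Tet2KO NOD 1 and 3 in Tet2KO NOD 2. The V and CDR3 were the same there in 9 of the 14. The TRDV1–TRAJ39 sequence printed above was found at 1 barcode in all 4 libraries, with 34 UMIs in NOD 2 and 4 in Tet2KO NOD 1, where it was called, and 29 in NOD 1 and 26 in Tet2KO NOD 2, where it was not. Without these 14 members the difference in productive TRA was -33.1 points and that in TRAJ58 to TRAJ40 of the TRD joins 37.1 points, and the genotype difference in the share of cells was -0.581 points. The differences in over 1 productive TRB and in TRAJ20 to TRAJ2 then no longer had 1 direction in all 4 libraries, as given beside each.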

How the data were processed

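Receptor transcripts of single cells from 4 libraries, each a pool of mice, were analysed. Per the file headers, the deposited tables hold 1 row per contig with its read count and UMI count, its segments, CDR3 and flags. Cell Ranger 7.0.1 and the build GRCm38 (mm10) are named in the submitters' processing notes. For the segment reference and the primers, no details are stated in the sources used here, and contig length went unused.

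The members, lists and named segments were chosen with earlier results of these data known. A cell was a barcode flagged as one. Productive chains were high confidence and full length; the one with most UMIs stood for a cell. A nonproductive contig named a V and a J. The reading frame compared each CDR3 with the germline TRDV, requiring 4 matching bases; TRDV coordinates come from GENCODE vM21 and RefSeq on GRCm38. Named segments were those of fixed TRG and TRD lists, any other in 2 or more members, and the 3 leading V of TRA and TRB; sequences were printed for V–J pairs in 3 or more cells and CDR3 in 2 or more, up to 12 of each. The 2 V-frame joins of TRDV5 and the named clones were chosen after their values were seen.

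Libraries were the replicates, and no p-value was made from cells. Genotypes were compared with an exact permutation test over 6 assignments, members with other cells by an exact sign-flip test over 16 sign patterns, adjusted by Benjamini-Hochberg over 14 measures; 5 comparisons were added after the data had been seen. Nothing states that pools were independent experiments beyond their set numbers, so p-values measure the spread between pools. Intervals are Wilson 95%, with 3 counts as the upper limit of a count of 0; both cover counting error only. Computation used Python 3.11 with pandas and scipy. Alternatives were contig and cell filters, depth reweighting, leaving out each library, the largest clone or shared barcodes, and the set number as a replicate block.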

Additional observations from a re-analysis of the deposited data

Results flagged for a closer look

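TRD contigs were also present in barcodes that were not called as cells, which the comparisons did not use: 43 in NOD 1, 6 in NOD 2, 6 in Tet2KO NOD 1 and 12 in Tet2KO NOD 2. Their median was 4 UMIs, and they included the single TRDV4 contig. Of those with a CDR3, 18 of 36 in NOD 1, 0 of 2 in NOD 2, 1 of 5 in Tet2KO NOD 1 and 2 of 12 in Tet2KO NOD 2 had the V, J and CDR3 of a called cell of the same library. The 1 TRG contig of the series, TRGV7 joined to TRGJ1 with 2 UMIs, lay in an uncalled barcode of Tet2KO NOD 1.

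In 2 measures, members lay below other cells in the Tet2KO NOD libraries, above them in NOD 1 and nearly level with them in NOD 2. The difference between genotypes was not tested. The share of paired cells in clonotypes of 2 or more cells was higher in members by 16.2 points in NOD 1 and 0.306 in NOD 2, while the difference was -34.7 in Tet2KO NOD 1 and -24.1 in Tet2KO NOD 2, where it rests on 5 and 13 paired members. Without the largest clone the NOD 1 difference was 4.80 points. The share of cells with a nonproductive TRB contig differed by 2.67 points in NOD 1, 0.359 in NOD 2, -3.05 in Tet2KO NOD 1 and -11.8 in Tet2KO NOD 2, where none of 30 members had one. The mean of the latter, -2.96, was -4.83 without NOD 1 and -0.00699 without Tet2KO NOD 2.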

How the results depend on the processing

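Of 266 alternatives over 22 results, 260 kept the direction, and none gave a p at or below 0.05, which the design does not allow. Some of them could not change a value. All 234 contigs were TRD and of high confidence, so filters on either returned the main value. The productive flag alone also returned it in all 14 measures. The share with a TRG or TRD contig and the share with a TRD contig were the same result, counted separately. The count of 260 is therefore larger than the number of informative alternatives. Under a replicate block by set number, the genotype difference in the share of cells with a TRD contig was -0.566 points with an exact permutation p of 1; permuting within sets cannot go below 0.5. Directions turned 6 times: the genotype difference by TRB clones (without NOD 1, 0.0454; without Tet2KO NOD 1, 0.528), TRAV/DV among members' TRA (without Tet2KO NOD 1, -0.721), and TRD joins against TRAV17 to TRAV21 at TRAJ58 to TRAJ40 (without NOD 2, 3.54; without Tet2KO NOD 1, 2.18; without members whose barcode has a TRD contig in another library, 1.37). The cause was not tested. The share of cells with a TRG contig was 0 in every alternative and is not counted here. With 1 library left out, the difference in productive TRA ranged from -38.2 to -27.9 points, that in the share of cells from -1.11 to -0.022, that by TRB clones from -0.626 to 0.528, that in TRAV/DV from -0.721 to 10.1, and that against TRAV17 to TRAV21 from -6.76 to 3.54.

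No value was obtained for members with a TRG contig (0 cells), for over 1 productive TRB without such cells, and for TRB UMIs reweighted by TRB UMIs. The Tet2KO NOD values rest on 14 and 30 members.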
